A study of Mus musculus with 9 samples.

Results

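The fibronectin- and RGD-binding integrin subunits are 9 genes, Itga4, Itga5, Itga8, Itga9, Itgav, Itgb3, Itgb5, Itgb6 and Itgb8, taken by name from the 52780 genes of the count table. Their names were matched to Ensembl identifiers through GENCODE M21. All 9 were found, and all 9 were among the 19545 genes that passed the filter on low counts.

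mRNA with a poly(A) tail was sequenced from C2C12 cells, an immortalised mouse myoblast line that fuses into myotubes when serum is lowered, collected at day 4 of differentiation. The 9 samples are 3 replicates of si mH2A1.1, 3 of si mH2A1.2 and 3 of si Ctrl. In the knockdown samples, siRNA against the macroH2A1.1 or the macroH2A1.2 splice isoform was given at 10 nM, once before the medium was changed, once on that day and once during differentiation. For the si Ctrl samples the labels give the genotype as wild type and name no siRNA. The study lists a scrambled control siRNA, gives 10 nM for all its siRNAs and names its control si Ctrl in other assays. Its sequencing methods call these samples wild type. All groups are the same line in the same medium, the cells of a dish are a mixture of myotubes and unfused cells, and the replicates are described by the study as independent biological ones, while the labels only number them. The deposited counts do not separate isoforms. H2afy, which encodes both macroH2A1 isoforms, was at 56.3 to 62.4 CPM (counts scaled to library size) with si Ctrl, 30.0 to 38.8 CPM with si mH2A1.1 and 43.2 to 47.2 CPM with si mH2A1.2. The groups did not overlap. The edgeR log2 fold change of H2afy against si Ctrl was -0.85 (SE 0.11, adjusted p = 0.00331) with si mH2A1.1. For the other knockdown it was -0.39 (SE 0.11, adjusted p = 0.108). Samples held between 36924252 and 42223108 counts, so that 3 counts, taken as the least that can be told from 0, were worth 0.0691 to 0.0826 CPM. This floor takes account of counting error alone, because the reads carry no molecular identifiers and are not independent molecules.

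Integrins are receptors of 1 α and 1 β subunit that span the membrane and tie the extracellular matrix to the actin cytoskeleton. A large subgroup recognises the tripeptide Arg-Gly-Asp (RGD), which is present in fibronectin, vitronectin, osteopontin and the latent peptide of TGF-β. The α5 and α8 subunits pair with β1, and αv pairs with β1, β3, β5, β6 or β8. The α4 and α9 subunits bind mostly through other sequences, α4 to an alternatively spliced segment of fibronectin and to VCAM-1. In muscle, these receptors hold myoblasts to their matrix, and the set of subunits on the surface changes during differentiation.

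Among these receptors, Itgb5 mRNA changed in opposite directions in the knockdowns. With si mH2A1.1 Itgb5 was downregulated, and with si mH2A1.2 both Itgb5 and Itgav were upregulated. Leaving out 1 sample ended the Itgb5 calls in 4 and 5 and the Itgav call in 7 of 9 fits. With the replicate number as a block, Itgb3 was also higher and Itga4 and Itgb8 were lower with si mH2A1.2 than with si Ctrl. The same block fit also had Itgb3 lower and Itga4 and Itgb6 higher with si mH2A1.1 than with si Ctrl. In that comparison the numbers were not taken to pair the samples. Itga8, an α subunit with a low level in these cells, was downregulated with si mH2A1.1. When the knockdowns were compared with each other, 5 of the 9 genes differed, beside 22.5% of all tested genes. Itga4 was higher and Itga8, Itgav, Itgb3 and Itgb5 were lower with si mH2A1.1. Itga5, the α subunit of the main fibronectin receptor and the highest of the 9 per exon length, passed the test in none of the 3 comparisons by edgeR, DESeq2 or limma-voom. In bulk RNA, fewer cells of a type and less RNA per cell cannot be told apart.

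Promoter windows of the genes that passed a test are shown because, between the knockdowns, Itgav and Itgb5 were lower and Itga4 higher with si mH2A1.1. Each window runs from 250 bases before to 50 bases after the transcription start in RefSeq on GRCm38.p6, 5′ to 3′ on the strand of the gene. RefSeq windows were found for 8 of the 9 genes and for 4 of the 5 that passed a test in any comparison. The gene without a window was Itgb3. The windows are Itgav at chr2:83724147-83724446 (plus strand), Itgb5 at chr16:33829415-33829714 (plus strand), Itga8 at chr2:12301895-12302194 (minus strand) and Itga4 at chr2:79255176-79255475 (plus strand). Capitals mark an E-box (CANNTG, the motif of basic helix-loop-helix factors) or a GC box (GGGCGG) read on either strand.
Itgav: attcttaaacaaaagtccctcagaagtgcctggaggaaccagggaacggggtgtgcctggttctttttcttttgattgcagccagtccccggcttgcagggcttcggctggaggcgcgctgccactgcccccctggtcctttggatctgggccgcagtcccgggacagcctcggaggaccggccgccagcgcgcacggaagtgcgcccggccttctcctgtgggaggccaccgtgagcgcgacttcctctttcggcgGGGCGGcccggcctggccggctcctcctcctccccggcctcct
Itgb5: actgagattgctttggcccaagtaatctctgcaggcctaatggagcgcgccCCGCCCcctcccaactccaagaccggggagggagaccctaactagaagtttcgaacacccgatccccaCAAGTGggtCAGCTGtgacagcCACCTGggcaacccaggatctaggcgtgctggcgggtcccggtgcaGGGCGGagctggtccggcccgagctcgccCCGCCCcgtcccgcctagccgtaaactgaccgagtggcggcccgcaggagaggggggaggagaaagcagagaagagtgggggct
Itga8: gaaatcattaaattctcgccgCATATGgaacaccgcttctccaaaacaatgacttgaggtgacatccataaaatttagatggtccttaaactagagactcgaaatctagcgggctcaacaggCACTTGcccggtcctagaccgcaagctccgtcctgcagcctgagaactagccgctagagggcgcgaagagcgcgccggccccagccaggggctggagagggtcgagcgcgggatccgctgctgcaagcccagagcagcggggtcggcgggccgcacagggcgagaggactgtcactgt
Itga4: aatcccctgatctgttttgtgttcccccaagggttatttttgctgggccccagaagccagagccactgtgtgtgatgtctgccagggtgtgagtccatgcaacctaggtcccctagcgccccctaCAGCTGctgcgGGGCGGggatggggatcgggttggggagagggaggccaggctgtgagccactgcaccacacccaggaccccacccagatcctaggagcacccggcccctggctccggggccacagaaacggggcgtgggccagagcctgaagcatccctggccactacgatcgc
The Itgb5 window holds 3 E-boxes and 3 GC boxes, and the Itgav window holds 1 GC box and 0 E-boxes. The Itga4 window holds 1 of each, and that of Itga8 holds 2 E-boxes and 0 GC boxes. An E-box is in 72.3% and a GC box in 35.7% of the 32851 mouse windows of the same length that were searched. None of these 4 windows holds a CCAAT box (in 37.4% of all windows), a TATA box spelled TATAAA (13.6%), the AP-1 motif TGANTCA (7.81%) or the TEAD motif GGAATG (14.7%), each searched on both strands. No motif searched overlaps another in capitals. A match describes letters, not a bound site, and the absence of one says only that these letters are not in this window.

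Itga5 (ENSMUSG00000000555, GRCm38 chr15:103344286-103366763, minus strand) encodes the α subunit of α5β1, the main receptor for the RGD site of fibronectin. It was at 559, 551 and 511 CPM in replicates 1, 2 and 3 of si Ctrl, at 399.9, 530.2 and 453 CPM with si mH2A1.1 and at 540.2, 494 and 442 CPM with si mH2A1.2. The groups overlapped in every comparison. The edgeR log2 fold change was -0.23 (SE 0.13, adjusted p = 0.258) with si mH2A1.1 and -0.14 (SE 0.13, adjusted p = 0.675) with si mH2A1.2, both against si Ctrl. Between the knockdowns it was -0.09 (SE 0.13, adjusted p = 0.643).

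Itgb1, the β partner of α4, α5, α8, α9 and αv, was at 1293 to 1442 CPM with si Ctrl, 1158 to 1406 CPM with si mH2A1.1 and 1286 to 1467 CPM with si mH2A1.2. The groups overlapped in the 3 comparisons. Its edgeR log2 fold change was -0.05 (SE 0.12, adjusted p = 0.809) with si mH2A1.1, -0.01 (SE 0.12, adjusted p = 0.988) with si mH2A1.2, and -0.05 (SE 0.12, adjusted p = 0.823) between the knockdowns. The other partner genes were low. Itgb7, a β subunit that pairs with α4 and is known from lymphocytes, was at 1.85, 1.52 and 0.464 CPM with si Ctrl, 9.19, 2.54 and 8.25 CPM with si mH2A1.1 and 0.578, 0.652 and 0.591 CPM with si mH2A1.2. Every si mH2A1.1 sample was above every other sample. Its edgeR log2 fold change with si mH2A1.1 was 2.38 (SE 0.52, adjusted p = 0.0206) against si Ctrl and 3.45 (SE 0.56, adjusted p = 0.0027) against si mH2A1.2. Itga2b, the platelet partner of β3, was at 7.17 to 9.73 CPM with si Ctrl, 3.04 to 5.21 CPM with si mH2A1.1 and 6.85 to 8.53 CPM with si mH2A1.2. Every si mH2A1.1 sample was below every other sample, with an edgeR log2 fold change of -1.04 (SE 0.22, adjusted p = 0.0171) against si Ctrl and -0.95 (SE 0.22, adjusted p = 0.0122) against si mH2A1.2. Against si Ctrl, the call of Itgb7 was lost on leaving out replicate 2 or 3 of si Ctrl or replicate 1 or 3 of si mH2A1.1 (highest edgeR adjusted p = 0.0787), and that of Itga2b on leaving out replicate 2 of si Ctrl or replicate 1 or 3 of si mH2A1.1 (highest edgeR adjusted p = 0.0715). Between the knockdowns, Itga2b had an adjusted p of 0.0534 without replicate 2 of si mH2A1.2 (edgeR).

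**Figure D1:**
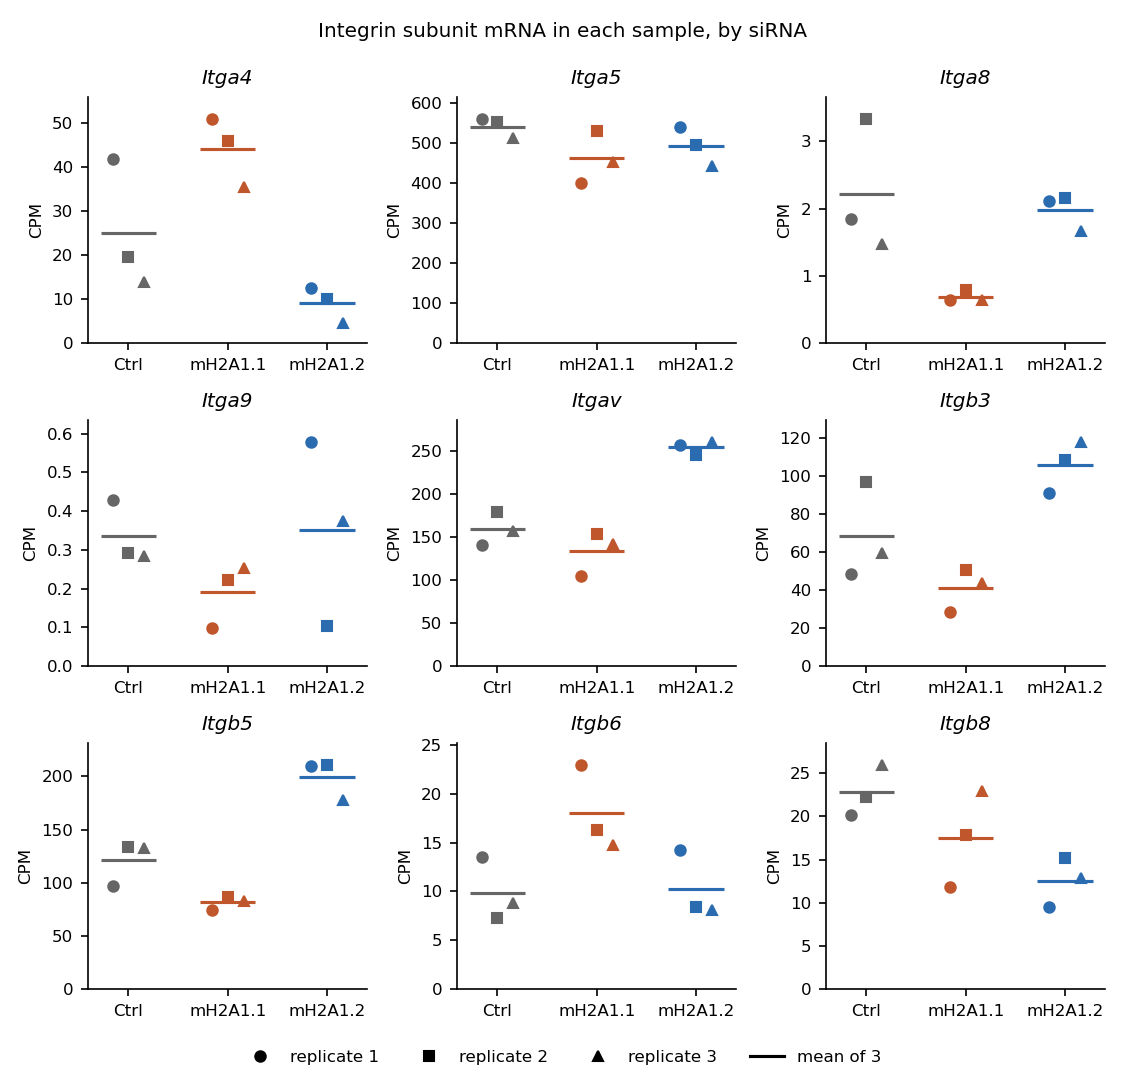
CPM (vertical axis, linear and from 0, a different range in each panel) of the 9 integrin subunit genes in the 3 replicates (circle, square, triangle) of each group, named by its siRNA, with a bar at the mean of 3. Itgav and Itgb5 are highest in the si mH2A1.2 samples (245 to 260.4 CPM and 178 to 210.5 CPM), and Itga4 is lowest there (4.48 to 12.6 CPM).

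Itgav (ENSMUSG00000027087, chr2:83724397-83806916, plus strand) encodes αv, the common α chain of the vitronectin receptors and of the integrins that release TGF-β from its latent complex. It was at 141, 179 and 158 CPM with si Ctrl, 105, 153 and 142 CPM with si mH2A1.1, and 257, 245 and 260.4 CPM with si mH2A1.2. Every si mH2A1.2 sample was above every other sample, while si mH2A1.1 and si Ctrl overlapped. The level was 1.6-fold higher with si mH2A1.2 than with si Ctrl (log2 fold change 0.68, SE 0.14, edgeR adjusted p = 0.0408). With si mH2A1.1, the log2 fold change against si Ctrl was -0.25 (SE 0.14, edgeR adjusted p = 0.261). Between the knockdowns, Itgav was 1.91-fold lower with si mH2A1.1 (log2 fold change -0.93, SE 0.14, edgeR adjusted p = 0.00207). The annotated genes Dnmt3l-ps1 and Gm13684 overlap it on the other strand, with at most 28 counts in a sample.

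Itgb5 (ENSMUSG00000022817, chr16:33829665-33949338, plus strand) encodes β5, which pairs with αv in a vitronectin receptor. It was at 97.4, 134 and 133 CPM with si Ctrl, 74.8, 86.8 and 83.1 CPM with si mH2A1.1, and 210.2, 210.5 and 178 CPM with si mH2A1.2. The 3 groups did not overlap, with si mH2A1.1 lowest and si mH2A1.2 highest. Itgb5 was 1.49-fold lower with si mH2A1.1 than with si Ctrl (log2 fold change -0.57, SE 0.13, edgeR adjusted p = 0.0268). It was 1.65-fold higher with si mH2A1.2 than with si Ctrl (log2 fold change 0.72, SE 0.13, edgeR adjusted p = 0.028). Between the knockdowns it differed 2.45-fold (log2 fold change -1.29, SE 0.14, edgeR adjusted p = 0.000382). Both knockdowns are set against the same si Ctrl samples.

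Itgb3 (ENSMUSG00000020689, chr11:104608000-104670476, plus strand) encodes β3, the partner of αv and of the platelet subunit αIIb. It was at 48.5, 96.8 and 59.2 CPM with si Ctrl, 28.5, 50.4 and 43.9 CPM with si mH2A1.1, and 90.7, 108 and 118 CPM with si mH2A1.2. Every si mH2A1.2 sample was above every si mH2A1.1 sample, and si Ctrl overlapped both. Its log2 fold change was -1.37 (SE 0.26, edgeR adjusted p = 0.00612) between the knockdowns. Against si Ctrl it was -0.73 (SE 0.26, edgeR adjusted p = 0.0925) with si mH2A1.1 and 0.63 (SE 0.26, edgeR adjusted p = 0.267) with si mH2A1.2. With the replicate block, the si mH2A1.2 samples were higher (log2 fold change 0.69, edgeR adjusted p = 0.0414). The block fit had the si mH2A1.1 samples lower than si Ctrl (log2 fold change -0.72, edgeR adjusted p = 0.0146). There the numbers were not taken to pair the samples.

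Itgb6 and Itgb8 encode the αv partners best known for activating latent TGF-β. Itgb6 (ENSMUSG00000026971, chr2:60598292-60722643, minus strand) was at 13.5, 7.27 and 8.82 CPM with si Ctrl, 22.9, 16.3 and 14.7 CPM with si mH2A1.1, and 14.3, 8.4 and 8.08 CPM with si mH2A1.2. Every si mH2A1.1 sample was above every other sample, and si Ctrl and si mH2A1.2 overlapped. The log2 fold change with si mH2A1.1 was 0.86 (SE 0.28, edgeR adjusted p = 0.0751) against si Ctrl and 0.81 (SE 0.28, edgeR adjusted p = 0.0652) against si mH2A1.2, and neither passed the test. With si mH2A1.2 it was 0.05 (SE 0.29, edgeR adjusted p = 0.955) against si Ctrl. Epithelial cells are the usual source of β6. The summed level of 5 epithelial marker genes was 0.959 to 1.42 CPM with si Ctrl, 0.741 to 0.84 CPM with si mH2A1.1 and 0.835 to 1.21 CPM with si mH2A1.2, and Epcam, Krt5 and Krt18 were at or under 3 counts in every sample.

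Itgb8 (ENSMUSG00000025321, chr12:119158022-119238802, minus strand) was at 20.2, 22.3 and 25.9 CPM with si Ctrl, 11.9, 17.9 and 22.9 CPM with si mH2A1.1, and 9.55, 15.2 and 12.8 CPM with si mH2A1.2. Every si mH2A1.2 sample was below every si Ctrl sample, and si mH2A1.1 overlapped both. The log2 fold change against si Ctrl was -0.86 (SE 0.24, edgeR adjusted p = 0.0971) with si mH2A1.2 and -0.38 (SE 0.23, edgeR adjusted p = 0.315) with si mH2A1.1. With the replicate block, the si mH2A1.2 samples were lower (log2 fold change -0.88, edgeR adjusted p = 0.0169). Between the knockdowns it was 0.49 (SE 0.24, edgeR adjusted p = 0.169).

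Itga8 (ENSMUSG00000026768, chr2:12106632-12301922, minus strand) encodes α8, which pairs with β1 and binds nephronectin and fibronectin through RGD. It was at 1.85, 3.33 and 1.47 CPM with si Ctrl, 0.642, 0.79 and 0.645 CPM with si mH2A1.1, and 2.12, 2.17 and 1.66 CPM with si mH2A1.2. These are 57 to 125, 26 to 32 and 62 to 83 counts. Every si mH2A1.1 sample was below every other sample. Itga8 was 3.19-fold lower with si mH2A1.1 than with si Ctrl (log2 fold change -1.67, SE 0.32, edgeR adjusted p = 0.0124) and 2.86-fold lower than with si mH2A1.2 (log2 fold change -1.51, SE 0.32, edgeR adjusted p = 0.00863). Against si Ctrl, si mH2A1.2 had a log2 fold change of -0.16 (SE 0.30, edgeR adjusted p = 0.851). An annotated gene on the same strand, Gm37701, overlaps Itga8 and had up to 311 counts in a sample, so reads may have been divided between them.

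Itga4 (ENSMUSG00000027009, chr2:79255426-79333123, plus strand) encodes α4, a receptor chain for VCAM-1 and fibronectin that is found on embryonic muscle cells. It was at 41.8, 19.7 and 14.0 CPM with si Ctrl, 50.9, 46.0 and 35.5 CPM with si mH2A1.1, and 12.6, 10.1 and 4.48 CPM with si mH2A1.2. Replicate 1 was the highest of each group. Every si mH2A1.2 sample was below every other sample, and si mH2A1.1 and si Ctrl overlapped. Itga4 was 4.87-fold higher with si mH2A1.1 than with si mH2A1.2 (log2 fold change 2.28, SE 0.43, edgeR adjusted p = 0.00558), which was the largest difference among the 9 genes in any of the 3 comparisons. Against si Ctrl, the log2 fold change was 0.81 (SE 0.41, edgeR adjusted p = 0.214) with si mH2A1.1 and -1.47 (SE 0.42, edgeR adjusted p = 0.111) with si mH2A1.2. With the replicate block, the si mH2A1.2 samples were lower (log2 fold change -1.44, edgeR adjusted p = 0.013). The block fit had the si mH2A1.1 samples higher than si Ctrl (log2 fold change 0.95, edgeR adjusted p = 0.0183). There the numbers were not taken to pair the samples.

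Itga9 (ENSMUSG00000039115, chr9:118606690-118901003, plus strand) encodes α9, which binds tenascin-C and the spliced EDA segment of fibronectin. It was at 0.428, 0.293 and 0.284 CPM with si Ctrl, 0.0988, 0.222 and 0.253 CPM with si mH2A1.1, and 0.578, 0.104 and 0.376 CPM with si mH2A1.2. At 4 to 21 counts per sample, this gene passed the test in no comparison (edgeR adjusted p between 0.311 and 0.971), and no direction is given. The antisense gene Gm10157 overlaps it with up to 1283 counts, and the strand setting of the counting is not given in the sources used here, so reads of both genes may be mixed.

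Against si Ctrl, 2 of the 9 genes passed the test with si mH2A1.1 at an adjusted p of 0.05 or less (Itga8 and Itgb5, both lower), beside 11.1% of all tested genes. In single directions, 0 of 9 were higher beside 6.18% of all tested genes and 2 of 9 were lower beside 4.93%. The median log2 fold change of the 9 was -0.38, and that of all tested genes was -0.01. Groups did not overlap in CPM for 4 of the 9 (Itga8, Itga9, Itgb5 and Itgb6), beside 34.2% of all tested genes. By DESeq2, 4 of 9 passed (Itga8, Itgb3, Itgb5 and Itgb6) beside 16.7%. At an adjusted p below 0.01 and a log2 change of 0.8 or more in either direction, edgeR called 0 of 9 beside 1.8%, and at an unadjusted p under 0.05 it called 4 of 9 beside 29.6%. The Itgb5 call was lost on leaving out replicate 2 or 3 of si Ctrl or replicate 1 or 3 of si mH2A1.1 (highest edgeR adjusted p = 0.101). The Itga8 call was lost on leaving out replicate 1 or 3 of si mH2A1.1 (highest edgeR adjusted p = 0.0543).

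With si mH2A1.2 against si Ctrl, 2 of the 9 genes passed (Itgav and Itgb5, both higher), beside 2.35% of all tested genes. In single directions, 2 of 9 were higher beside 1.37% and 0 of 9 were lower beside 0.982%. The median log2 fold change of the 9 was 0.05. Groups did not overlap for 4 of the 9 (Itga4, Itgav, Itgb5 and Itgb8), beside 22.5% of all tested genes. The replicate numbers pair the samples of this comparison, and with the replicate number as a block 5 of 9 passed beside 5.14%. These were Itgav (adjusted p = 0.0166), Itgb3 (0.0414) and Itgb5 (0.0157), which were higher, and Itga4 (0.013) and Itgb8 (0.0169), which were lower (edgeR). By DESeq2, 3 of 9 passed (Itgav, Itgb5 and Itgb8) beside 6.24%. At an adjusted p below 0.01 and a log2 change of 0.8 or more in either direction, edgeR without the block called 0 of 9 beside 0.179%, and at an unadjusted p under 0.05 it called 5 of 9 beside 15.9%. Without the block, the Itgav call was lost on leaving out any sample of si Ctrl or si mH2A1.2 or replicate 3 of si mH2A1.1 (highest edgeR adjusted p = 0.154). The Itgb5 call was lost on leaving out replicate 1 or 3 of si Ctrl, replicate 1 or 2 of si mH2A1.2 or replicate 3 of si mH2A1.1 (highest edgeR adjusted p = 0.0999).

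Between the knockdowns, 5 of the 9 genes passed, beside 22.5% of all tested genes. Itga4 was higher with si mH2A1.1, beside 12% of all tested genes, and Itga8, Itgav, Itgb3 and Itgb5 were lower, beside 10.5%. The median log2 fold change of the 9 was -0.86, and that of all tested genes was -0.01. Groups did not overlap for 6 of the 9, the same 5 genes and Itgb6, beside 39.7%. All 5 also had an adjusted p below 0.01 and a log2 change of 0.8 or more in either direction, beside 6.38% of all tested genes. By DESeq2, 6 of 9 passed (the same 5 and Itgb6) beside 23.4%, and 6 of 9 had an unadjusted p under 0.05 in edgeR beside 36.2%. Each of the 5 kept its call when any of the 9 samples was left out (highest edgeR adjusted p = 0.0369, for Itga8).

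**Figure D2:**
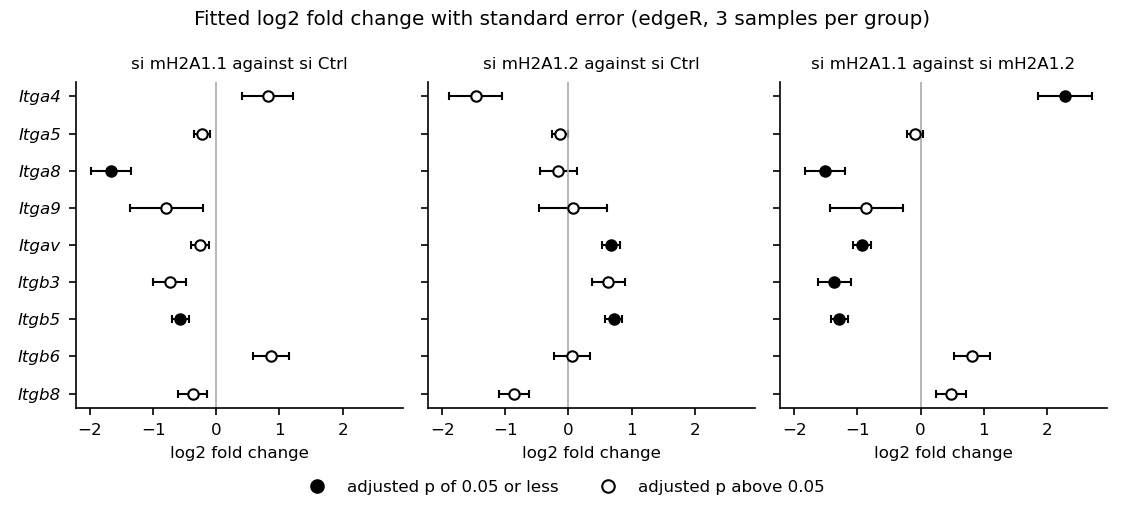
Fitted log2 fold change (horizontal axis) of the 9 genes in the 3 comparisons, with bars of 1 standard error from edgeR. Filled points have an adjusted p of 0.05 or less, and Itgav, Itgb3 and Itgb5 lie left of 0 and Itga4 right of 0 in the panel of si mH2A1.1 against si mH2A1.2.

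An exact two-sided permutation test over 3 and 3 samples has a smallest possible p of 0.1, so single genes were judged by the fit across all genes. The 10 interferon-induced genes of the marker list were all higher with si mH2A1.1 than with si Ctrl in edgeR, beside 6.18% of all tested genes. Their summed level was 32.1 to 39.6 CPM with si Ctrl, 149.8 to 596 CPM with si mH2A1.1 and 28.3 to 46.5 CPM with si mH2A1.2. The part of this response in the si mH2A1.1 results was not tested.

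Levels of different genes were compared as RPKM, reads scaled to library size and to summed exon length. With si Ctrl, Itga5 was highest at 109.6 ± 5.19 RPKM (SD, n = 3), followed by Itgb5 at 34.1 ± 5.82, Itgav at 14.8 ± 1.79 and Itgb3 at 11.6 ± 4.30 RPKM. Itgav and Itgb3 overlapped between samples, and the other neighbours among these 4 did not. A lower group followed, with Itgb8 at 2.06 ± 0.264, Itga4 at 1.80 ± 1.05 and Itgb6 at 1.39 ± 0.459 RPKM, in which each gene overlapped the next. Itga8 was at 0.301 ± 0.134 RPKM and Itga9 at 0.0436 ± 0.0105 RPKM, and neither overlapped its neighbour. The partner Itgb1 was at 335 ± 18.2 RPKM with si Ctrl.

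The first 4 places were the same in all 3 groups, and Itga8 and Itga9 were last in each. In the knockdowns, each of the first 4 was apart from the next. The middle of the order differed. With si mH2A1.1 it ran Itga4 (3.16 ± 0.564 RPKM), Itgb6 (2.53 ± 0.611) and Itgb8 (1.59 ± 0.502), and with si mH2A1.2 it ran Itgb6 (1.44 ± 0.491), Itgb8 (1.13 ± 0.257) and Itga4 (0.648 ± 0.298). Neighbours within this middle group overlapped between samples in both knockdowns.

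**Figure D3:**
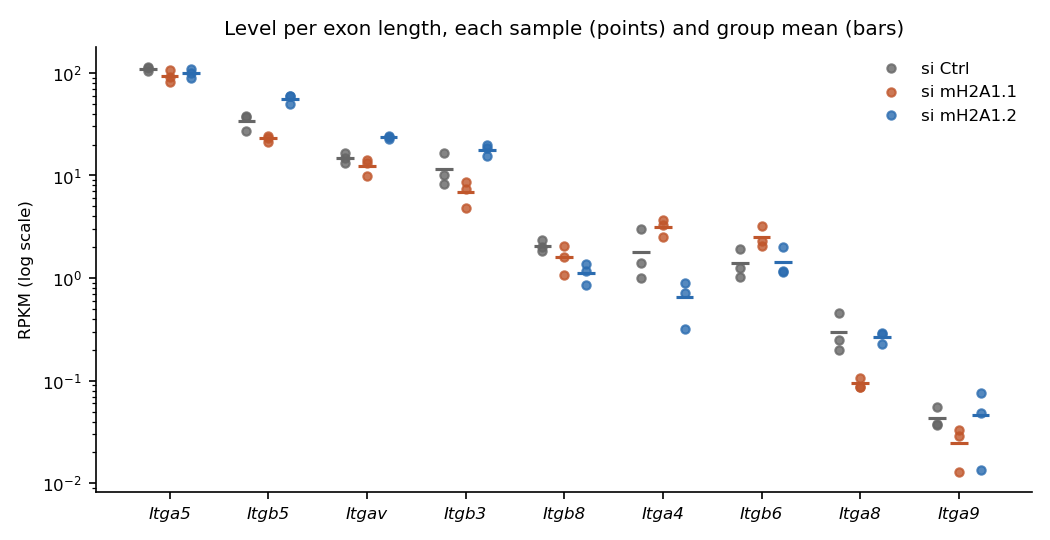
RPKM on a log10 axis of the 9 genes (horizontal axis, ordered by the si Ctrl mean) in each sample, with bars at group means. Itga5 is near 100 RPKM in every group (93.5 to 109.6 RPKM on average), while Itgb5, Itgav and Itgb3 are highest with si mH2A1.2.

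The make-up of the subunit pool was described from RPKM. This measure was chosen after the values were seen, and no test was made on it. Itga5 held 85.7% to 87.4% of the summed RPKM of the 5 α subunit genes with si Ctrl, 85.3% to 85.9% with si mH2A1.1 and 78.3% to 81.3% with si mH2A1.2. The Itgav share was 10.1% to 12.8% with si Ctrl, 10.4% to 12.2% with si mH2A1.1 and 17.8% to 21.2% with si mH2A1.2. The si mH2A1.2 samples were apart from the others in both shares. Itga4 held 0.836% to 2.30% with si Ctrl, 2.36% to 3.85% with si mH2A1.1 and 0.28% to 0.669% with si mH2A1.2, so that the 3 groups did not overlap.

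The 4 β subunit genes that pair with αv, Itgb3, Itgb5, Itgb6 and Itgb8, summed to 39.3 to 57.0 RPKM with si Ctrl, 30.2 to 36.9 RPKM with si mH2A1.1 and 72.3 to 80.2 RPKM with si mH2A1.2. Within this sum, Itgb5 was the largest part in every sample, at 65.9% to 73.3% with si Ctrl, 66.3% to 69.7% with si mH2A1.1 and 69.2% to 76.4% with si mH2A1.2. Itgb5 and Itgb3 kept overlapping ratios, with 2.29 to 3.73 times more RPKM of Itgb5 with si Ctrl, 2.86 to 4.35 with si mH2A1.1 and 2.51 to 3.85 with si mH2A1.2. The TGF-β activating subunits were a small part. Itgb6 held 1.79% to 4.84%, 5.93% to 10.7% and 1.47% to 2.60%, and Itgb8 held 3.53% to 4.63%, 3.55% to 5.93% and 1.12% to 1.72% in the order si Ctrl, si mH2A1.1, si mH2A1.2. By group, the Itgb6 share was highest in the si mH2A1.1 samples, and the Itgb8 share lowest in the si mH2A1.2 samples.

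**Figure D4:**
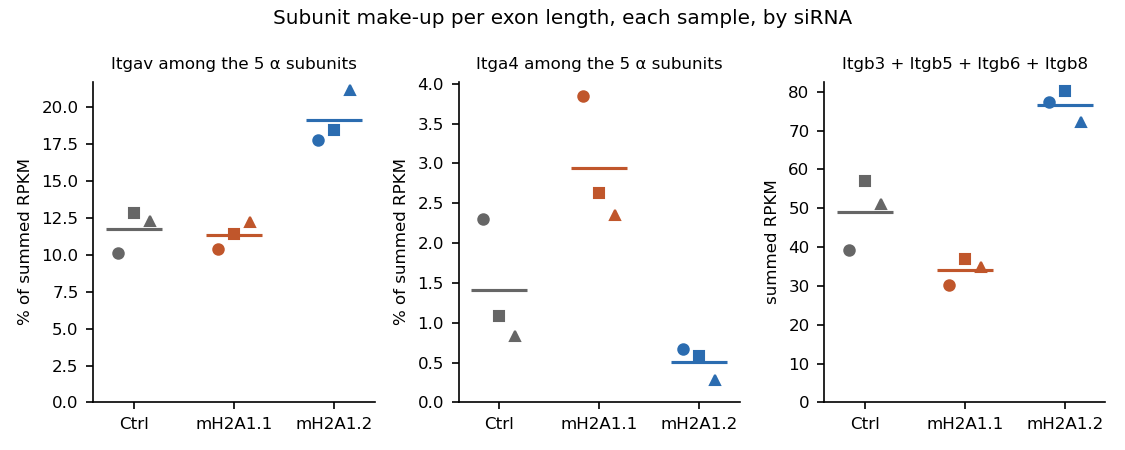
Share of Itgav and of Itga4 in the summed RPKM of the 5 α subunit genes (left and middle, percent) and summed RPKM of Itgb3, Itgb5, Itgb6 and Itgb8 (right), per replicate with a bar at the mean. Itgav makes up 17.8% to 21.2% with si mH2A1.2 and at most 12.8% in any other sample.

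Genes with the most similar profile were sought by Pearson's r of log2 CPM over the 9 samples, among the 14380 other tested genes of at least 1 CPM. The points share their libraries and groups, and the r is a description. For Itgav these were Lrp1 (r = 0.989), Kctd12b (0.987) and Angpt4 (0.985), and for Itgb5 they were Ldlrad4 (0.992), Col8a2 (0.992) and Emilin1 (0.991). Lrp1 encodes a large endocytic receptor, and Col8a2 and Emilin1 encode matrix proteins. For Itgb3 they were Gpatch2l (0.987), Smim14 (0.980) and Zfp260 (0.980). For Itga4 they were Arl10 (0.979), Pax7 (0.977) and Stc1 (0.977), and Pax7 is the transcription factor that marks satellite cells. For Itga8 they were Zfp330 (0.974), Spice1 (0.967) and Ube4bos3 (0.963).

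Pax7 was also in the list of 6 genes of undifferentiated or cycling myoblasts (Pax7, Myf5, Mki67, Top2a, Ccnb1 and Cdk1). All 6 were higher with si mH2A1.1 than with si mH2A1.2 in edgeR, the direction of Itga4, beside 12% of all tested genes. Their summed level was 273 to 433 CPM with si Ctrl, 401 to 756 CPM with si mH2A1.1 and 217 to 307 CPM with si mH2A1.2. Against si Ctrl, edgeR called 0 of 6 with si mH2A1.1. There, 4 had an unadjusted p under 0.05 (29.6% of all tested genes), DESeq2 called 2 (16.7%) and limma-voom 0. With si mH2A1.2, 1 of 6, Myf5, was lower (0.982%), a call lost in each of the 9 fits that leave out 1 sample. Of 11 myotube genes, 3 were lower with si mH2A1.1 than with si Ctrl (Actn2, Myog and Mymx), beside 4.93% of all tested genes. With si mH2A1.2, 3 were lower than with si Ctrl (Actn2, Des and Tnnt3), beside 0.982%. Between the knockdowns, 4 of the 11 were higher with si mH2A1.1, as Itga4 was, and 2 were lower, beside 12% and 10.5%. Leaving out 1 sample ended the si mH2A1.1 calls of Actn2, Myog and Mymx in 1, 4 and 4 fits, and the si mH2A1.2 calls of Actn2, Des and Tnnt3 in 0, 8 and 4 fits. Their summed level was 18836 to 27904 CPM, 17776 to 21494 CPM and 16143 to 20457 CPM in the 3 groups. The markers of the labelled cell type were thus present in every sample. Of 7 fibroblast and smooth muscle genes, Tagln was lower with si mH2A1.1, beside 4.93% of all tested genes. Tagln and Cnn1 were higher with si mH2A1.2, beside 1.37%, so that these calls had the direction of Itgb5. By the sign of the fold change, 2 of the 7 were higher with si mH2A1.1 and 2 were lower with si mH2A1.2. Leaving out 1 sample ended the Tagln calls in 4 and 7 and the Cnn1 call in 5 of 9 fits. Their summed level was 1843 to 3021 CPM with si Ctrl, 2086 to 2313 CPM with si mH2A1.1 and 2938 to 3751 CPM with si mH2A1.2. The part of these cell states in the integrin results was not tested. Lists of 4 endothelial and 6 leukocyte and platelet genes summed to at most 2.99 and 2.27 CPM in any sample, with Gp9 at or under 3 counts in every sample and Kdr in every si mH2A1.1 sample. Tek, an endothelial receptor, was higher with si mH2A1.1 than with si Ctrl (log2 fold change 1.84, SE 0.46, edgeR adjusted p = 0.033), a call lost in 6 of these 9 fits.

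Of 20 genes of RGD ligands, 16 were tested. Against si Ctrl, 5 of these were lower (4.93% of all tested genes) and 0 higher (6.18%) with si mH2A1.1. There, 8 had an unadjusted p under 0.05 (29.6%), DESeq2 called 6 (16.7%) and limma-voom 5. With si mH2A1.2, 1 was higher (1.37% of all tested genes) and 0 lower (0.982%), while 10 had an unadjusted p under 0.05 (15.9%). In this comparison 5 passed with the replicate block (5.14% of all tested genes), 6 by DESeq2 (6.24%) and 2 by limma-voom. The list had a median log2 fold change of -0.49 in the si mH2A1.1 samples and 0.45 in the si mH2A1.2 samples. Between the knockdowns, 8 were lower (10.5% of all tested genes) and 2 higher (12%) with si mH2A1.1.

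Fn1, which encodes fibronectin itself, was at 8269 to 10554 CPM with si Ctrl, 2647 to 5958 CPM with si mH2A1.1 and 14327 to 19013 CPM with si mH2A1.2, and the groups did not overlap. Its edgeR log2 fold change was -1.06 (SE 0.27, adjusted p = 0.0333) with si mH2A1.1, 0.90 (SE 0.27, adjusted p = 0.124) with si mH2A1.2, and -1.96 (SE 0.28, adjusted p = 0.00137) between the knockdowns. The si mH2A1.1 call was lost in 6 of the 9 fits that leave out 1 sample (highest adjusted p = 0.115). Thbs1, encoding thrombospondin-1, was at 883 to 1060 CPM with si Ctrl, 317 to 526 CPM with si mH2A1.1 and 1601 to 1919 CPM with si mH2A1.2. It was lower with si mH2A1.1 (log2 fold change -1.08, SE 0.19, edgeR adjusted p = 0.00876) and higher with si mH2A1.2 (0.93, SE 0.19, edgeR adjusted p = 0.0347). The call with si mH2A1.1 held in all 9 such fits, and that with si mH2A1.2 was lost in 7 (highest edgeR adjusted p = 0.131).

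The other RGD ligand genes called with si mH2A1.1 were Postn, Fbln5 and Edil3, which encode the matrix proteins periostin, fibulin-5 and the αv ligand EDIL3. Postn was at 206 to 462 CPM with si Ctrl and 19.9 to 65.6 CPM with si mH2A1.1, 6.98-fold lower (log2 fold change -2.80, SE 0.41, edgeR adjusted p = 0.00472). Fbln5 was at 15.4 to 18.2 CPM with si Ctrl and 1.56 to 7.29 CPM with si mH2A1.1, 4.04-fold lower (log2 fold change -2.01, SE 0.39, edgeR adjusted p = 0.0138). Edil3 was at 55.0 to 57.7 CPM with si Ctrl and 33.7 to 49.8 CPM with si mH2A1.1 (log2 fold change -0.45, SE 0.12, edgeR adjusted p = 0.0458). The Postn call held on leaving out any sample, while the Fbln5 call was lost without replicate 2 of si Ctrl or replicate 3 of si mH2A1.1 (highest edgeR adjusted p = 0.0632). The Edil3 call was lost in 8 of the 9 fits (highest edgeR adjusted p = 0.134). Vtn, encoding vitronectin, had 2 to 10 counts in a sample and was not tested.

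Of 6 genes of ligands of α4 and α9, 5 were tested. With si mH2A1.1, Emilin1 and Svep1 were lower than with si Ctrl, with si mH2A1.2 Emilin1 was higher, and between the knockdowns all 5 were lower with si mH2A1.1. Of all tested genes, 4.93%, 1.37% and 10.5% were called in these directions. Emilin1, a matrix glycoprotein bound by α4 and α9, was at 23.2 to 34.3 CPM with si Ctrl, 16.8 to 20.9 CPM with si mH2A1.1 and 54.0 to 61.1 CPM with si mH2A1.2. Its groups did not overlap, as those of Itgb5. The log2 fold change was -0.68 (SE 0.15, edgeR adjusted p = 0.0197) with si mH2A1.1 and 0.97 (SE 0.15, edgeR adjusted p = 0.0138) with si mH2A1.2. Svep1, encoding polydom, an α9 ligand, was at 14.8 to 35.3 CPM with si Ctrl and 3.80 to 8.29 CPM with si mH2A1.1 (log2 fold change -2.22, SE 0.43, edgeR adjusted p = 0.0137). Leaving out 1 sample ended the Emilin1 call in 4 of 9 fits with si mH2A1.1 and in 3 of 9 with si mH2A1.2, with a highest edgeR adjusted p of 0.0789 and 0.0562. The Svep1 call was lost without replicate 1 of si mH2A1.1 (edgeR adjusted p = 0.0634).

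Latent TGF-β is a ligand of αvβ6 and αvβ8, held in the matrix by some of the LTBP proteins or on cells by GARP (Lrrc32). Whether the product of each listed gene binds latent TGF-β was not tested. Of 9 genes of this list, 8 were tested. Against si Ctrl, 1 was higher (6.18% of all tested genes) and 2 lower (4.93%) with si mH2A1.1. In the si mH2A1.2 samples, 3 were higher (1.37%) and 0 lower (0.982%), and 5 had an unadjusted p under 0.05 (15.9%). There, 4 passed with the replicate block (5.14%), 4 by DESeq2 (6.24%) and 3 by limma-voom. Between the knockdowns, 7 of 8 were lower with si mH2A1.1 (10.5%). Tgfb3 (log2 fold change -0.50, SE 0.13, edgeR adjusted p = 0.0339) and Ltbp1 (-0.57, SE 0.15, edgeR adjusted p = 0.0378) were lower and Tgfb2 (0.63, SE 0.16, edgeR adjusted p = 0.0349) was higher with si mH2A1.1. Each of these 3 calls was lost in 5 or 6 of the 9 fits that leave out 1 sample (highest edgeR adjusted p = 0.115, 0.144 and 0.111).

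With si mH2A1.2, Ltbp2 was at 70.7 to 82.1 CPM, compared with 15.9 to 22.1 CPM with si Ctrl and 10.2 to 15.3 CPM with si mH2A1.1. It was 3.98-fold higher than with si Ctrl (log2 fold change 1.99, SE 0.17, edgeR adjusted p = 0.00426). Lrrc32 was at 3.68 to 4.46 CPM with si mH2A1.2 and 0.268 to 0.567 CPM with si Ctrl, from 10 to 22 counts in the latter, and was 8.62-fold higher (log2 fold change 3.11, SE 0.30, edgeR adjusted p = 0.00481). Both calls held on leaving out any sample. Ltbp3 was at 181 to 249.5 CPM with si Ctrl and 304 to 351 CPM with si mH2A1.2 (log2 fold change 0.63, SE 0.13, edgeR adjusted p = 0.039), and this call was lost in 7 of 9 fits (highest adjusted p = 0.139). Itgb6 and Itgb8, the β subunits of αvβ6 and αvβ8, did not pass in edgeR without the block.

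Adaptors such as talins, kindlins and paxillin join integrin tails to actin. Of 43 genes, 41 were tested, and 2 were lower and 0 higher than si Ctrl with si mH2A1.1, beside 4.93% and 6.18% of all tested genes. For this comparison, 13 had an unadjusted p under 0.05 (29.6% of all tested genes), DESeq2 called 4 (16.7%) and limma-voom 2. These were Tns3, a tensin (log2 fold change -0.55, SE 0.13, edgeR adjusted p = 0.0284), and Itgb1bp2, which encodes melusin, a muscle protein that binds the β1 tail (-0.62, SE 0.14, edgeR adjusted p = 0.0213). The Tns3 call was lost in 4 and the Itgb1bp2 call in 2 of the 9 fits that leave out 1 sample (highest edgeR adjusted p = 0.102 and 0.0796). With si mH2A1.2, edgeR called 0 of 41, while 8 had an unadjusted p under 0.05 (15.9% of all tested genes). DESeq2 called 2 (6.24%), limma-voom 0 and the replicate block 1 (5.14%). Of all tested genes, edgeR without the block called 2.35% here. Between the knockdowns, 4 were lower (10.5% of all tested genes) and 1 higher (12%) with si mH2A1.1. The list had a median log2 fold change of 0.07 in the si mH2A1.1 samples and 0.03 in the si mH2A1.2 samples.

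**Figure D5:**
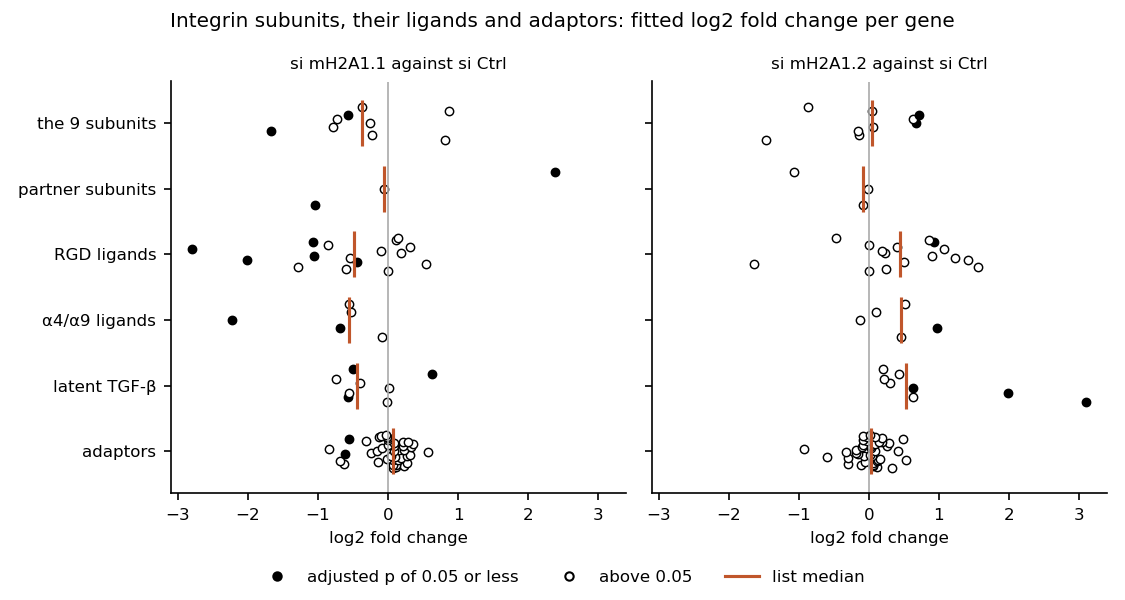
Fitted log2 fold change (horizontal axis) of each tested gene of the 9 subunits, their partners, ligands and adaptors against si Ctrl, with filled points at an edgeR adjusted p of 0.05 or less and a line at each list's median. RGD ligand genes have a median of -0.49 (left) and 0.45 (right), while adaptors have 0.07 and 0.03.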

How the data were processed

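mRNA of 9 C2C12 samples was analysed, with groups and replicate numbers taken from the labels. The authors sequenced single reads of 50 bp and estimated reads per gene with Salmon on GRCm38 (mm10 per the labels). The deposited expected counts hold the estimates rounded to whole numbers and not normalized. The other table that the authors deposited is a signal, in which each sample's counts are divided by its size factor (0.950 to 1.13), and was used only for a check that this ratio is constant. Names, positions and exon lengths came from GENCODE M21, which holds 52762 of the 52780 genes. Annotation release and strand setting of the counting are not given in the sources used here.

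Genes were tested in R 4.3.3 with edgeR 4.0.16 (quasi-likelihood test in legacy form, TMM, filterByExpr, Benjamini-Hochberg adjustment over 19545 genes), with 9 samples in 1 model. A call is an adjusted p of 0.05 or less, as in the methods of the study. CPM used TMM library sizes. DESeq2 1.42.0, limma-voom (limma 3.58.1), other size factors, filters, samples and cutoffs, the replicate block and leaving out each sample were alternatives. The share of all tested genes called was not tabulated for limma-voom, for no filter or for leaving out a sample. Counts from those fits therefore cannot be set against the background. The tests were checked on simulated data. Figures and summaries used Python 3.11.15, pandas 2.3.3, numpy 2.4.6 and matplotlib 3.10.9.

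Deviations from group means had r of 0.196 to 0.331 between same-numbered samples of si mH2A1.2 and si Ctrl, where every pair was over 0.1 and the numbers were taken to pair the samples. For si mH2A1.1 the r was 0.0841 to 0.0976 with si Ctrl and 0.0917 to 0.116 with si mH2A1.2, which did not meet this rule. These are correlations across genes, which are not independent replicates, and the labels name no shared batch. Library names run consecutively within each replicate number across the groups. The block fit held all 9 samples, so it paired the si mH2A1.1 samples by number as well.

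The 9 genes and the lists of partners, ligands, adaptors and markers were chosen with earlier results of these data known. Named from the lists were the partners, Fn1, H2afy and genes with an adjusted p of 0.05 or less in either knockdown against si Ctrl (at most 6 of a list), and for each called subunit the 3 genes of at least 1 CPM with the highest r. Other names were given after their values were seen. The siRNA sequences, proteins and the other assays of the study were not analysed here.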

Additional observations from a re-analysis of the deposited data

How the results depend on the processing

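With 3 samples per group and 9 genes, 1 call is a large part of any count, and the low counts of Itga8 and Itga9 limit what could be seen of them. With si mH2A1.1 against si Ctrl, 2 of 9 were called, and the count was 4 with DESeq2, 4 with no filter on low counts, 5 with the replicate block (Itga4, Itga8, Itgb3, Itgb5 and Itgb6, beside 20.8% of tested genes), 0 at the stricter cutoffs and 0 to 3 when 1 sample was left out. With si mH2A1.2 against si Ctrl, 2 were called, and the count was 4 with no filter, 5 with the replicate block, 0 at the stricter cutoffs and 0 to 3 when 1 sample was left out. Between the knockdowns the count was 5, and 5 to 7 in all alternatives, with 7 under the replicate block (Itgb6 and Itgb8 besides the 5, beside 29% of tested genes). The numbers were not taken to pair the samples in the comparisons with si mH2A1.1. Still, each sample correlated best with the one of its own number (mean r between other numbers -0.04 and -0.05). The library names also run consecutively within a number, but the labels name no shared batch. The cause of the changes in the count of calls was not tested.

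With the longest protein-coding transcript as length, the si Ctrl level was 123 RPKM for Itga5, 22.6 for Itgav, 2.06 for Itgb6 and 2.71 for Itgb8, and the order of the 9 genes stayed as it was. Of the fold changes of single subunits, 8 reversed, all of genes far from a call with si mH2A1.2 against si Ctrl. Itga8 was at 0.26 without replicate 2 of si Ctrl (range over the 9 samples left out in turn -0.39 to 0.26). Itga9 was at -0.20 with limma-voom, -0.02 and -0.05 without replicate 2 or 3 of si Ctrl and -0.48 without replicate 1 of si mH2A1.2 (range -0.48 to 0.50). Itgb6 was at -0.12 and -0.03 without replicate 2 or 3 of si Ctrl and -0.26 without replicate 1 of si mH2A1.2 (range -0.26 to 0.35). Of the other single values, 407 kept their direction and side of the threshold, 22 passed it newly and 18 lost it. Itga9 had no test with at least 10 counts required in every sample, and DESeq2 gave it no adjusted p for si mH2A1.2 against si Ctrl.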

Other observations

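The integrin subunits that bind collagen, laminin or leukocyte ligands were listed for comparison, and the names below were given after their values were seen. Of 15 genes, 12 were tested. With si mH2A1.1 against si Ctrl, Itga3, Itga10 and Itga11 were lower and Itgb2 was higher in edgeR, beside 11.1% of all tested genes called; the Itgb2 call was lost without replicate 3 of si mH2A1.1. With si mH2A1.2 against si Ctrl, Itga11 and Itgb4 were higher and Itga6 was lower, beside 2.35% of all tested genes, and the block called 4 (5.14%). The calls of Itga11 and Itgb4 with si mH2A1.2 were lost in 7 and 4 of the 9 fits that leave out 1 sample. Itga3, a laminin receptor chain, was at 78.1 to 105 CPM with si Ctrl and 34.4 to 57.1 CPM with si mH2A1.1 (log2 fold change -0.94, SE 0.19, edgeR adjusted p = 0.0142), and this call was lost without replicate 2 of si Ctrl. Itga6, another laminin receptor chain, was at 218 to 276 CPM with si Ctrl and 141 to 169 CPM with si mH2A1.2 (log2 fold change -0.62, SE 0.13, edgeR adjusted p = 0.0363), and this call was lost in 7 of the 9. Itga7, the laminin receptor chain of muscle fibres, had the direction of Itga4 between the knockdowns (log2 fold change 0.94, SE 0.26, edgeR adjusted p = 0.0293), a call lost in 5 of the 9 fits.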
